A study of Mus musculus with 8 samples.

Results

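Genes that load and present antigen on MHC molecules were followed in intestinal epithelial cells of lactating mice. They are H2-Aa, H2-Ab1, H2-Eb1, H2-DMa, H2-DMb1, Cd74 and Ciita on the class II side, and B2m, H2-K1 and H2-D1 on the class I side. The genes were chosen by name, as parts of the presentation pathways, with earlier results of these data known. They make up 10 of the 54532 genes in the count table. All 10 had enough counts to be tested.

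The study asked how the receptor RANK (gene symbol Tnfrsf11a) shapes the intestinal epithelium during reproduction. Mice on a C57BL/6J background carrying floxed Rank were crossed to Vil-cre, in which the Villin1 promoter drives Cre in the intestinal epithelium, and 4 Rank-knockout libraries were compared with 4 WT libraries, all from the intestine at lactation day 5. Controls were littermates per the study's methods; the labels say no more of the WT genotype than WT, and for age the study gives only a range over all its mice. Cells came from minced tissue passed through a dissociation reagent and a strainer, with no sorting step described, and RNA was read from the 3′ end of transcripts.

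MHC class II molecules are pairs of an alpha and a beta chain that show peptides from engulfed or lysosomal proteins to CD4 T cells, and are best known from dendritic cells, macrophages and B cells. Enterocytes of the small intestine also make them, under the control of the coactivator CIITA, which interferon-gamma induces. MHC class I molecules, a heavy chain bound to beta-2 microglobulin, are made by nearly all nucleated cells and show peptides from the cell's own proteins to CD8 T cells.

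Promoter sequence was examined for the letters that class II and class I regulators are known to bind. RefSeq promoters were at hand for 7 of the 10 genes, all but H2-Ab1, Cd74 and Ciita, and each was searched over the 250 bases before the start site, on both strands. Capitals mark the letters found, and ATTGG is CCAAT read on the opposite strand. In the class II genes these were the X box core, which the RFX complex binds and whose match is the first run of capitals in H2-Eb1, and CCAAT or its extended form TGATTGG (a Y box, which NF-Y binds). The first 2 stretches below end at the base before the start site and are shown because CIITA acts through such boxes.

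H2-Aa (GRCm38.p6 chr17:34287824-34288003, minus strand): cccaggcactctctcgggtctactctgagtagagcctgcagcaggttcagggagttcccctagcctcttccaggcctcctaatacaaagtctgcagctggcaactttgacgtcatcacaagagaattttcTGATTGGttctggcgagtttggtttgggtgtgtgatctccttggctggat
H2-Eb1 (GRCm38.p6 chr17:34305687-34305866, plus strand): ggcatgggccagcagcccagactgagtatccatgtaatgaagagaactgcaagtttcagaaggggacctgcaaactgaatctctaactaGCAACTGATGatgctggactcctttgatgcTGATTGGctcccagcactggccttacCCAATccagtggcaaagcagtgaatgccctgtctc

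The H2-Eb1 promoter held the X box letters from base -91 to -82 and TGATTGG from -61 to -55, counted back from the start site. H2-Aa held TGATTGG from -50 to -44 and H2-DMb1 from -63 to -57. The X box was searched as a fixed string, so a gene without a match may still hold a diverged X box. H2-DMa held only CCAAT, from -198 to -194 on the opposite strand. The class I gene H2-D1 held TGATTGG too, from -53 to -47 on the opposite strand. The start sites used for H2-DMa (34125518), H2-DMb1 (34153191) and H2-D1 (35263094) lie past the annotated gene starts, at 34119541, 34153072 and 35262730. The letters found in these genes therefore lie inside the genes as annotated. The X box letters were present in 0.691% and TGATTGG in 7.23% of 32851 promoter stretches of this length, and CCAAT alone in 33.8%. TGATTGG contains CCAAT on the opposite strand and was added to the search after these promoters had been seen.

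The class I promoters were searched for a pair of κB sites, letters that NF-κB binds, of which one is GGGATTCCC and the other is the second run of capitals in B2m, read on the opposite strand. They were also searched for the core of the interferon-stimulated response element, the first run of capitals in B2m. They are shown because RANK signals through NF-κB.

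B2m (GRCm38.p6 chr2:122147507-122147685, plus strand): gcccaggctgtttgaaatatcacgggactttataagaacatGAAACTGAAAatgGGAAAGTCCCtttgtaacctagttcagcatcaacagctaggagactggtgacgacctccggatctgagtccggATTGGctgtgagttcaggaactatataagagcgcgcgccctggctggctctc
H2-K1 (GRCm38.p6 chr17:34000348-34000527, minus strand): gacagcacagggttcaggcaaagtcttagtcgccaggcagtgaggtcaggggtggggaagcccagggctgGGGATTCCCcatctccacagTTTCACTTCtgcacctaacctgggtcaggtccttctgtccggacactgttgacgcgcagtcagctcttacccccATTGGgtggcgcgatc

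B2m held the response element core from -139 to -130 and the κB site from -126 to -117. H2-K1 held GGGATTCCC from -110 to -102. The κB site of B2m was in 0.14%, GGGATTCCC in 0.301% and the response element core in 2.98% of the promoter stretches. A shorter response element core, GAANNGAAA, chosen after the promoters had been seen and found in 6.31% of them, is marked in H2-K1 on the opposite strand. The same pair of sites stood in H2-D1, from -170 to -162 and from -150 to -142, inside the gene as annotated. The stretch that spans both sites had 28 of 29 bases equal in the 2 genes, the sites themselves being matches of the search.

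H2-K1 site pair (GRCm38.p6 chr17:34000429-34000457, minus strand): GGGATTCCCcatctccacagTTTCACTTC
H2-D1 site pair (GRCm38.p6 chr17:35262924-35262952, plus strand): GGGATTCCCcatctcctcagTTTCACTTC

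A match of letters describes the sequence only, and no factor's binding was measured.

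Total counts per library ran from 1530781 to 4335653. Counts were scaled by library sizes adjusted with TMM, a method that centres most genes, to give CPM, the counts of a gene relative to the scaled total. Genotypes were compared with edgeR's quasi-likelihood F-test over 9855 genes, with Benjamini-Hochberg adjustment and a threshold of 0.05, and every log2 fold change is Rank-knockout minus WT. At this threshold 30.4% of all genes differed between the genotypes, 15.8% with more and 14.6% with fewer tags in Rank-knockout. That is 1555 higher and 1438 lower, a split that became 2566 and 859 with unscaled library totals and 2172 and 1007 with library sizes that leave out the 50 most abundant genes. Tnfrsf11a itself had 77.4, 49.7, 41.7 and 73.9 CPM in WT replicates 1 to 4, against 27.2, 42.0, 35.5 and 47.2 CPM in Rank-knockout. It was lower by a log2 fold change of -0.67 ± 0.22 (SE; adjusted p = 0.0321 by edgeR), but the genotypes overlapped and the call was lost under 6 of 16 alternatives, with an adjusted p of up to 0.113. A 3′ tag of this gene may fall outside the stretch that was removed, so it is a weak check of the deletion.

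By edgeR none of the 7 class II genes was called higher or lower in the Rank-knockout epithelium, and 0 had an unadjusted p under 0.05, which 41.9% of all genes tested had. Their levels differed widely between libraries of the same genotype, and they did so together. All were low in WT replicate 1 and Rank-knockout replicates 1 and 3, and high in WT replicate 4 and Rank-knockout replicates 2 and 4. Of the 3 class I genes, B2m and H2-K1 were lower in Rank-knockout by log2 fold changes of -0.77 and -0.65, and H2-D1 had a change of -0.59 that did not pass. In all, 2 of the 10 genes were lower and 0 higher at the edgeR threshold, where 14.6% of all genes tested were lower, and no gene of the 10 was higher by DESeq2 or limma-voom either. The median log2 fold change was 0.11 over the 7 class II genes and -0.65 over the 3 class I genes, beside 0.02 over all genes tested. Over the 16 alternatives the class II median took both signs, from -0.64 without Rank-knockout replicate 2 to 0.44 without Rank-knockout replicate 1, and was -0.39 with limma-voom, whereas the class I median ran from -0.77 to -0.45.

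The 3 chains of the surface class II molecules come first. H2-Ab1, the beta chain of the I-A molecule (ENSMUSG00000073421; GRCm38 chromosome 17, 34257689 to 34269419, plus strand), had 65.8, 154, 216 and 276 CPM in WT replicates 1 to 4, against 39.5, 295, 29.2 and 207 CPM in Rank-knockout replicates 1 to 4. The highest WT library was 4.19 times the lowest and the highest Rank-knockout library 10.1 times the lowest, so the Rank-knockout range enclosed the WT range. The means were 178 ± 89.7 CPM in WT against 143 ± 130 CPM in Rank-knockout (SD, n = 4). Its log2 fold change was -0.32 ± 0.85 (SE; adjusted p = 0.816 by edgeR), with a 95% confidence interval from -2.39 to 1.75.

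H2-Aa, the alpha chain of I-A (ENSMUSG00000036594; chromosome 17, 34282744 to 34287823, minus strand), was low and high in nearly the same libraries. It had 29.5, 77.0, 130 and 212 CPM in WT against 15.9, 245, 14.8 and 151 CPM in Rank-knockout. Between the highest and lowest library lay 7.21-fold in WT and 16.5-fold in Rank-knockout. H2-Aa had a log2 fold change of -0.06 ± 1.07 (SE; adjusted p = 0.973 by edgeR), and the interval, -2.65 to 2.52, is the widest of the 10 genes.

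H2-Eb1, the beta chain of the I-E molecule (ENSMUSG00000060586; chromosome 17, 34305867 to 34316674, plus strand), had 27.4, 88.4, 152 and 176 CPM in WT against 25.7, 189, 11.7 and 129 CPM in Rank-knockout. Rank-knockout replicate 3 was the lowest of the 8 libraries and Rank-knockout replicate 2 the highest. The log2 fold change was -0.31 ± 0.95 (SE; adjusted p = 0.840 by edgeR). The alpha chain of I-E, annotated as H2-Ea-ps, a polymorphic pseudogene, had 0 counts in all 8 libraries, and C57BL/6 mice are known to lack I-E at the surface.

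Genes that guide peptide loading behaved alike. Cd74, the invariant chain that fills the peptide groove until the endosome is reached (ENSMUSG00000024610; chromosome 18, 60803848 to 60812652, plus strand), had 28.1, 64.4, 114 and 157 CPM in WT against 20.6, 275, 26.5 and 158 CPM in Rank-knockout. Rank-knockout replicates 1 and 3 lay below every WT library and Rank-knockout replicates 2 and 4 above every one. For Cd74 the log2 fold change was 0.41 ± 0.97 (SE; adjusted p = 0.792 by edgeR).

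H2-DMb1, one chain of the DM molecule that exchanges peptides on class II (ENSMUSG00000079547; chromosome 17, 34153072 to 34160230, plus strand), had 50.0, 196, 212 and 268 CPM in WT against 42.9, 438, 39.1 and 266 CPM in Rank-knockout. Its log2 fold change was 0.11 ± 0.93 (SE; adjusted p = 0.944 by edgeR). Of its last 500 transcript bases, 20.4% of the 50-base stretches also occur in H2-DMb2, which had 1 count in all 8 libraries together. H2-DMa, the partner chain (ENSMUSG00000037649; chromosome 17, 34119541 to 34139101, plus strand), was the lowest of the 10 genes in counts, with 13, 50, 29 and 44 counts in WT and 45, 102, 22 and 80 in Rank-knockout. This gave 8.91, 12.7, 19.8 and 29.3 CPM in WT against 9.55, 38.3, 9.89 and 21.1 CPM in Rank-knockout. The range was narrower than in the other class II genes, and the log2 fold change was 0.18 ± 0.51 (SE; adjusted p = 0.823 by edgeR).

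Ciita, the coactivator of the class II genes (ENSMUSG00000022504; chromosome 16, 10480059 to 10528418, plus strand), had 21.2, 36.2, 60.8 and 76.5 CPM in WT against 17.6, 106, 10.8 and 88.8 CPM in Rank-knockout. The libraries low in class II chains were the ones low in Ciita, in both genotypes. Ciita had a log2 fold change of 0.22 ± 0.81 (SE; adjusted p = 0.870 by edgeR).

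**Figure D1:**
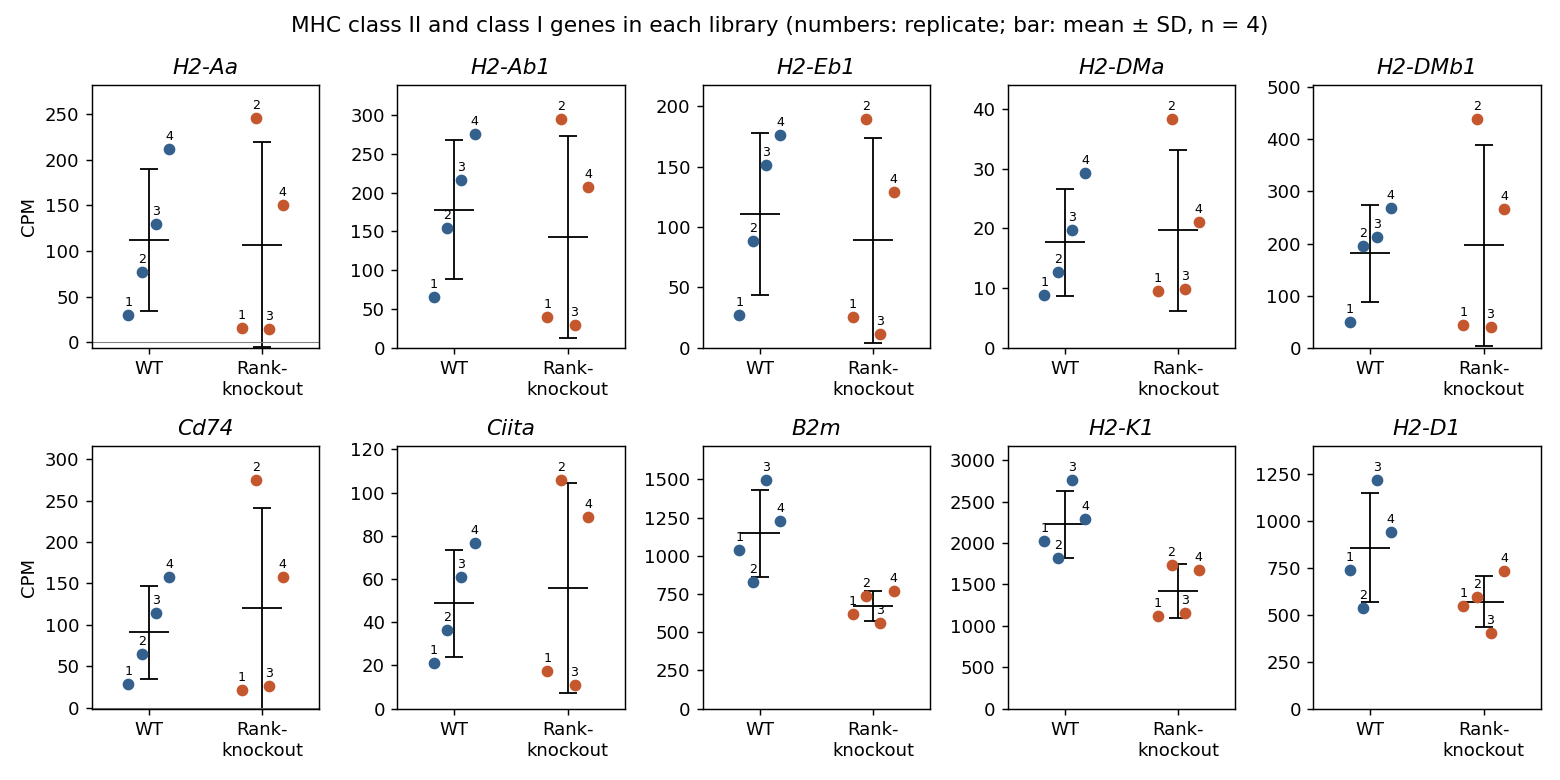
CPM of the 10 genes in each library, by genotype. Points are libraries with their replicate number, and black bars are the mean ± SD of 4 libraries. In the class II genes Rank-knockout replicates 1 and 3 sit near the bottom and replicates 2 and 4 near the top, on both sides of the WT mean. In B2m and H2-K1 all 4 Rank-knockout libraries lie below all 4 WT libraries.

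With so wide a spread, the intervals of 6 class II genes reach beyond -1 and 1 on the log2 scale. A change of 2-fold in either direction was therefore not excluded by these libraries. Their direction was not fixed either. Every one of the 7 turned sign under at least 1 alternative or with 1 library left out, and none was called in any of the 16 alternatives. H2-Aa ranged from -0.86 to 0.41 with 1 library left out, Cd74 from -0.39 to 0.78 and H2-DMb1 from -0.64 to 0.46. Total counts were 1530781, 4335653, 1603861 and 1616024 in WT replicates 1 to 4 and 4321154, 2545111, 2103716 and 3596391 in Rank-knockout, and the part of depth in the class II spread was not tested.

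The spread between libraries of 1 genotype was measured for each gene as the SD of log2 CPM about the genotype means. Over the 7982 genes with a mean of at least 10 CPM its median was 0.26. It was 1.71 for H2-Aa, 1.57 for H2-Eb1, 1.504 for Cd74, 1.47 for H2-DMb1, 1.33 for H2-Ab1 and 1.28 for Ciita, and 0.82 for H2-DMa. For H2-Aa only 4 genes had a larger spread, namely Reg3b, Reg3g, Ubd and Tap2. Reg3b and Reg3g encode antibacterial lectins, Ubd a ubiquitin-like protein induced by interferon-gamma, and Tap2 one chain of the class I peptide transporter. The class I members varied far less, with 0.30 for B2m, 0.30 for H2-K1 and 0.44 for H2-D1. These are descriptions of 8 libraries, and no test was run on the spreads.

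**Figure D2:**
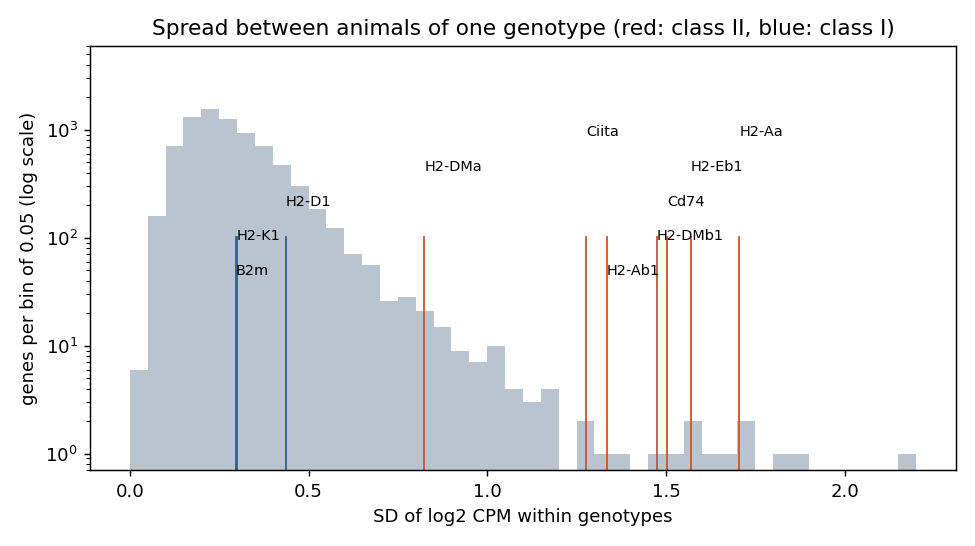
Distribution of the SD of log2 CPM within genotypes over 7982 genes with a mean of at least 10 CPM, on a log count axis. Red lines mark the class II genes, of which 6 lie between 1.28 and 1.71, and blue lines the class I genes, which lie between 0.30 and 0.44. The median of all genes was 0.26.

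The class II genes moved together from library to library. Over the 8 libraries the log2 CPM of H2-Ab1 and Ciita had Pearson's r = 0.970 (exact permutation p = 0.00015, adjusted 0.00033 over the 9 relations of H2-Ab1 with the other genes) and Spearman's rho = 0.929 (exact permutation p = 0.0022, adjusted 0.0050). Without Rank-knockout replicates 1 and 3, the 2 libraries farthest from the median of H2-Ab1, r was 0.936, and after removal of the genotype means it was 0.992. H2-Eb1 ranked the 8 libraries exactly as H2-Ab1 did, with rho = 1. H2-DMa had the lowest r with H2-Ab1 among the class II genes, 0.881, which had an exact permutation p of 0.0047 (adjusted 0.0070). All 21 pairs of class II genes had r between 0.881 and 0.991. All values come from the same 8 libraries and share their depth and scaling.

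Among 7981 genes with a mean of at least 10 CPM, the 5 most like H2-Ab1 by Pearson's r over the 8 libraries were H2-Aa at 0.991, H2-Eb1 at 0.989, H2-DMb1 at 0.974, Ciita at 0.970 and Hltf, a DNA helicase, at 0.956. Cd74 stood at rank 6 and H2-DMa at rank 14. So 6 of the first 14 places belonged to the class II genes listed here, whereas H2-K1 stood at rank 106, H2-D1 at 395 and B2m at 580. H2-K1 had r = 0.737 with H2-Ab1 (exact permutation p = 0.042, adjusted 0.054) and rho = 0.571 (exact permutation p = 0.15, adjusted 0.17). Without the 2 farthest libraries, Rank-knockout replicates 1 and 3, the pooled r was 0.04 for H2-K1, -0.04 for B2m and 0.17 for H2-D1, so the pooled relation of class I with class II rests on those libraries. After removal of the genotype means, over all 8 libraries, r was 0.834 for H2-K1, 0.612 for B2m and 0.583 for H2-D1.

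**Figure D3:**
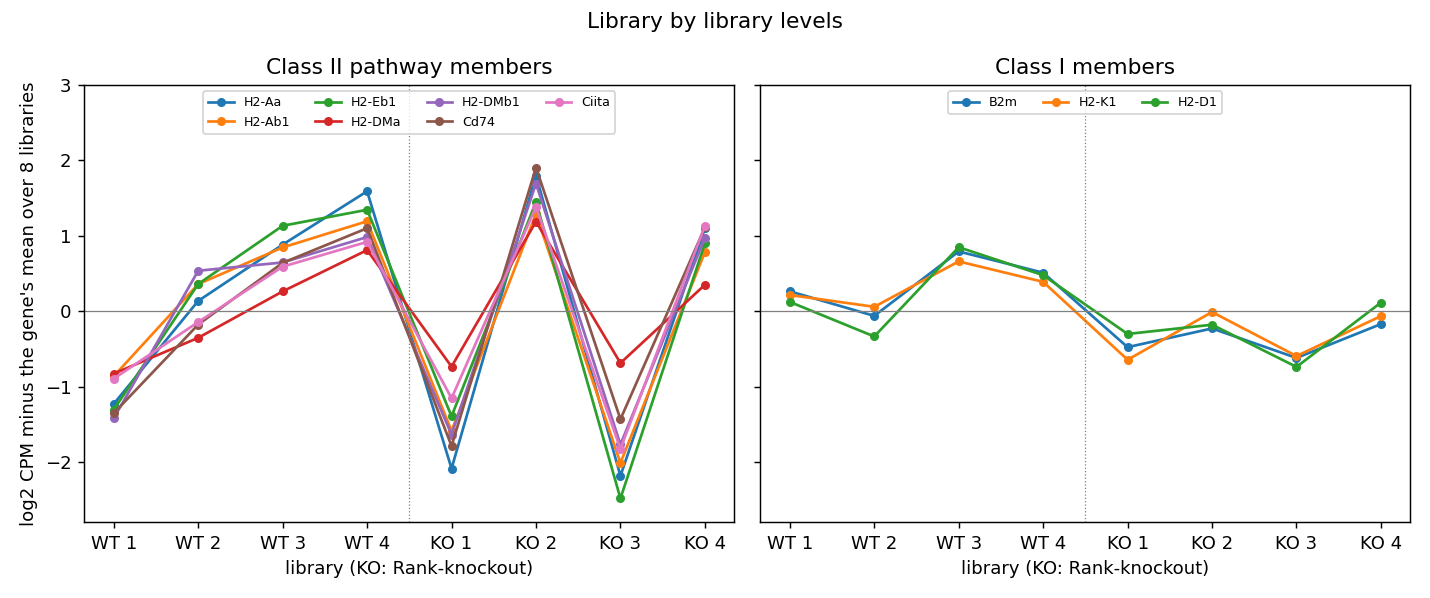
Log2 CPM of each gene minus its mean over the 8 libraries, by library, for class II genes (left) and class I genes (right) on the same scale. Lines join the values of 1 gene, and the order of replicates carries no meaning. The class II lines run together from below -2 to nearly 2, while the class I lines stay within 1 of 0.

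B2m, beta-2 microglobulin, the light chain of every class I molecule (ENSMUSG00000060802; chromosome 2, 122147686 to 122153083, plus strand), had 1036, 827, 1496 and 1230 CPM in WT against 620, 737, 562 and 767 CPM in Rank-knockout. Every Rank-knockout library was below every WT library, which was the case in that direction for 14.3% of all genes tested. The means were 1147 ± 285 CPM in WT against 671 ± 96.7 CPM in Rank-knockout (SD, n = 4). The log2 fold change was -0.77 ± 0.18 (SE; adjusted p = 0.00481 by edgeR), with a 95% interval from -1.15 to -0.39, and the call held in all 16 alternatives, from -0.91 to -0.58.

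H2-K1, a classical class I heavy chain (ENSMUSG00000061232; chromosome 17, 33996017 to 34000347, minus strand), had 2028, 1820, 2762 and 2289 CPM in WT against 1118, 1734, 1157 and 1672 CPM in Rank-knockout. The genotypes did not overlap, but Rank-knockout replicates 2 and 4 came near the lowest WT library. The means were 2225 ± 406 CPM in WT against 1420 ± 328 CPM in Rank-knockout (SD, n = 4). The log2 fold change was -0.65 ± 0.18 (SE; adjusted p = 0.0144 by edgeR). The call was lost with library totals (-0.45, adjusted p = 0.0557), without WT replicate 3 (-0.54, adjusted p = 0.0607) and without Rank-knockout replicate 3 (-0.56, adjusted p = 0.0567).

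H2-D1, the other classical heavy chain (ENSMUSG00000073411; chromosome 17, 35262730 to 35267499, plus strand), had 738, 537, 1220 and 943 CPM in WT against 549, 598, 406 and 733 CPM in Rank-knockout. WT replicate 2 lay below 3 Rank-knockout libraries, so the genotypes overlapped. H2-D1 had a log2 fold change of -0.59 ± 0.23 (SE; adjusted p = 0.0725 by edgeR). The value passed with DESeq2 (-0.60, adjusted p = 0.0477), with no filter on low counts (-0.54, adjusted p = 0.0069), without WT replicate 2 (-0.77, adjusted p = 0.0087) and without Rank-knockout replicate 4 (-0.73, adjusted p = 0.0335). Some 3′ sequence is not unique to these genes: of the 50-base stretches in the last 500 transcript bases, 0.443% of those of H2-K1 and 9.53% of those of H2-D1 also occur in another gene, H2-D1 itself in the case of H2-K1 and 80 other genes in the case of H2-D1, so a part of their tags could have been split or dropped.

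The genes most like H2-K1 over the 8 libraries were Fgd4 at r = 0.988, Spryd7 at 0.974, Mdh1 at 0.973, Gna13 at 0.973 and Acsl5 at 0.972. Mdh1 is the cytosolic malate dehydrogenase and Acsl5 an acyl-CoA synthetase of enterocytes. B2m came at rank 21 and H2-D1 at rank 311. H2-K1 differed between the genotypes, so these pooled values include that difference. After removal of the genotype means r was 0.968 for Fgd4, 0.926 for Acsl5, 0.888 for B2m and 0.827 for H2-D1. In the class II genes it then ran from 0.780 (H2-DMb1) to 0.862 (Ciita).

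**Figure D4:**
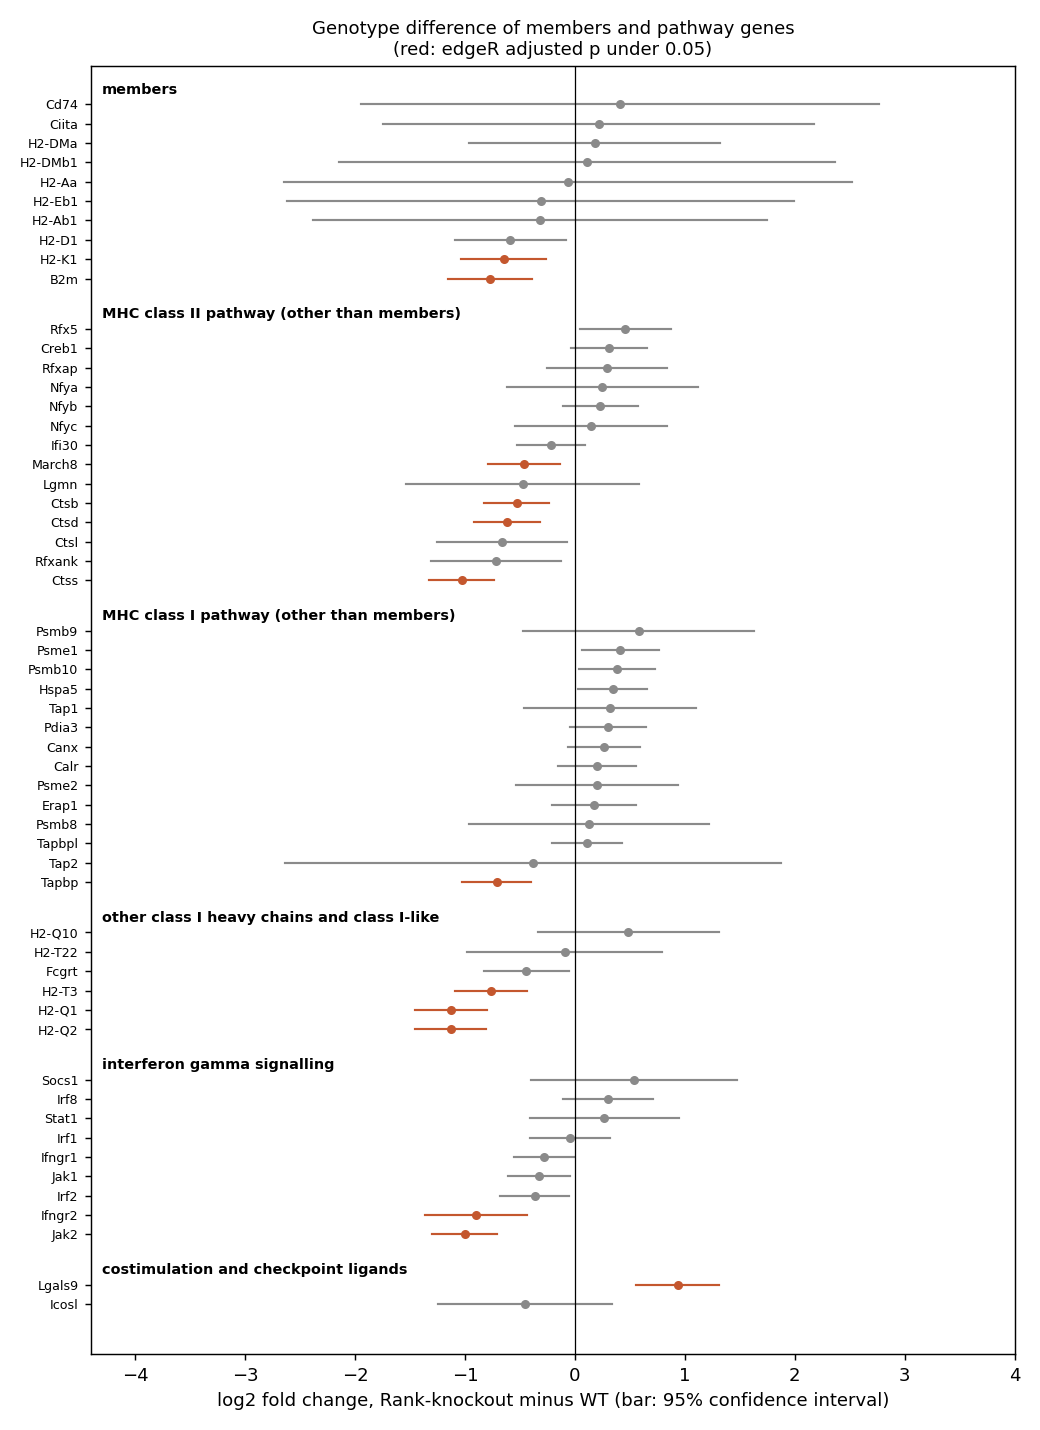
Log2 fold changes, Rank-knockout minus WT, with 95% confidence intervals for the 10 genes and 45 further pathway genes that passed the filter on low counts, grouped by list. Red marks an edgeR adjusted p under 0.05. The intervals of 6 class II genes reach beyond -1 and 1, as does that of Tap2, and 10 pathway genes are red below 0 against 1 above. Intervals clear of 0 without an adjusted call are grey.

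Around the 10 genes, 69 further genes of the presentation pathways were in the table, and 45 of them could be tested. Of these, 10 were lower and 1 was higher at the edgeR threshold, their median log2 fold change was 0.11, and that of all genes tested was 0.02. Over all genes 14.6% were lower and 15.8% higher. The split of the pathway genes depended on the scaling: it was 8 lower and 10 higher with library totals, and 9 lower and 5 higher with library sizes that leave out the 50 most abundant genes. At an unadjusted p under 0.05 the counts were 16 lower and 5 higher, beside 20.1% lower and 21.8% higher of all genes tested. The 24 that were not tested had too few counts for the filter.

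Among 14 tested genes of the class II pathway, 4 were lower and none higher, and 10 did not pass, where 14.6% of all genes tested were lower and 15.8% higher. The 4 were not transcription factors but proteases and a ligase. Ctss, cathepsin S, which trims the invariant chain, had 242, 235, 322 and 280 CPM in WT against 135, 128, 123 and 141 CPM in Rank-knockout. Each Rank-knockout library was far below each WT library, and the log2 fold change was -1.03 ± 0.14 (SE; adjusted p = 0.0002 by edgeR), called in all 16 alternatives. The lysosomal proteases Ctsd and Ctsb were lower by -0.61 (edgeR adjusted p = 0.0046) and -0.53 (adjusted p = 0.0099). Ctsd was called in all 16 alternatives, and Ctsb in all but library totals (-0.33, adjusted p = 0.0747). March8, a ubiquitin ligase of membrane proteins, had -0.46 (edgeR adjusted p = 0.0347) and kept its call in only 7 of the 16 alternatives, losing it with library totals, without the 50 most abundant genes, with no filter on low counts, and without any 1 of WT replicates 1, 3 and 4 and Rank-knockout replicates 1, 2 and 3, with a highest adjusted p of 0.188.

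Of the other factors that bind class II promoters, none was called by edgeR as fitted, and 4 were called under some alternatives: Rfx5 with library totals and without the 50 most abundant genes, Rfxank without WT replicate 2 and without Rank-knockout replicate 2, and Nfyb and Creb1 with library totals. Rfx5, the DNA-binding subunit of the RFX complex, named here after its values had been seen, had 15.1, 15.5, 13.7 and 14.6 CPM in WT against 20.2, 22.9, 17.99 and 20.3 CPM in Rank-knockout. All 4 Rank-knockout libraries were higher, but the log2 fold change of 0.46 ± 0.20 (SE) had an edgeR adjusted p of 0.0843. Its RFX partners Rfxap and Rfxank had 0.29 (edgeR adjusted p = 0.414) and -0.72 (adjusted p = 0.0614). Nfya, Nfyb and Nfyc, the subunits of NF-Y, had values from 0.15 to 0.25, and none passed. Nfya ran from 2.73 to 11.6 CPM in WT, on few counts.

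Of all genes tested 30.4% passed the edgeR threshold, and among 14 tested genes of class I peptide supply and folding only Tapbp was called. Its change was opposite in sign to most of the list, of which 2 of 14 genes lay below 0 and whose median log2 fold change was 0.23, with 3 genes higher at an unadjusted p under 0.05. Of these, Psme1, a proteasome activator subunit, had 0.41 (adjusted p = 0.0700) and was called in 5 of 16 alternatives, and Psmb10, an immunoproteasome subunit, had 0.39 (adjusted p = 0.0858) and was called in 2, with library totals and without the 50 most abundant genes. Both are named after their values had been seen. Tapbp, or tapasin, which holds class I molecules at the peptide transporter, had 518, 646, 595 and 557 CPM in WT against 312, 433, 320 and 351 CPM in Rank-knockout. The genotypes did not overlap, and the log2 fold change was -0.71 ± 0.15 (SE; adjusted p = 0.0023 by edgeR), called in all 16 alternatives. The most abundant genes of the list, the chaperones Hspa5, Calr and Canx, had values of 0.34 (edgeR adjusted p = 0.0874), 0.20 (adjusted p = 0.384) and 0.26 (adjusted p = 0.210). Tap1 and Tap2, named after their values had been seen, carry peptides into the endoplasmic reticulum and had 0.32 (edgeR adjusted p = 0.530) and -0.38 (adjusted p = 0.797). Tap2 had 78.1, 4.31, 145 and 132 CPM in WT against 53.1, 54.0, 31.0 and 127 CPM in Rank-knockout, and its low value in WT replicate 2 rests on 17 counts.

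Of the other class I heavy chains and class I-like genes, 6 of 17 in the table were tested, 3 were lower and none was higher. Over all genes tested, 14.6% were lower and 15.8% higher. H2-Q2 had 636, 562, 804 and 730 CPM in WT against 290, 299, 286 and 371 CPM in Rank-knockout, with a log2 fold change of -1.13 ± 0.15 (SE; adjusted p = 0.0002 by edgeR). H2-Q1 had 231, 234, 290 and 265 CPM in WT against 107, 117, 94.4 and 146 CPM in Rank-knockout, with -1.13 ± 0.15 (SE; adjusted p = 0.0002 by edgeR). Neither gene's genotypes overlapped, though 18.8% of the 3′ 50-base stretches of H2-Q1 and 13.1% of those of H2-Q2 occur in another gene, so the pair is not fully separate. H2-T3, the thymus leukaemia antigen, a ligand of CD8 alpha homodimers on intraepithelial lymphocytes, had 545, 537, 554 and 599 CPM in WT against 241, 370, 322 and 384 CPM in Rank-knockout. Its log2 fold change was -0.76 ± 0.15 (SE; adjusted p = 0.0021 by edgeR). All 3 calls held in the 16 alternatives.

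Of 9 tested genes of interferon-gamma signalling, 2 were lower and none higher, where 14.6% of all genes tested were lower and 15.8% higher. Jak2, the kinase bound to the receptor's second chain, had 194, 201, 195 and 212 CPM in WT against 112, 94.2, 82.3 and 110 CPM in Rank-knockout, with a log2 fold change of -1.003 ± 0.139 (SE; adjusted p = 0.0002 by edgeR). Ifngr2, that second chain, had 62.3, 43.6, 80.6 and 75.2 CPM in WT against 30.6, 27.4, 31.9 and 47.7 CPM in Rank-knockout, with -0.90 ± 0.22 (SE; adjusted p = 0.0064 by edgeR). In Ifngr2 the highest Rank-knockout library overlapped the lowest WT library, in Jak2 no library did, and both calls held in the 16 alternatives. The most abundant genes of this list, Irf1, Ifngr1 and Irf8, had values of -0.05 (edgeR adjusted p = 0.861), -0.28 (adjusted p = 0.114) and 0.30 (adjusted p = 0.250). Ifng itself, the ligand, had 2 counts, both in Rank-knockout replicate 2.

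Of the costimulation and checkpoint ligands only Lgals9 and Icosl could be tested. Lgals9, galectin-9, had 54.1, 53.5, 84.7 and 53.3 CPM in WT against 123, 120, 91.7 and 132 CPM in Rank-knockout. It was higher in every Rank-knockout library, by a log2 fold change of 0.94 ± 0.18 (SE; adjusted p = 0.0014 by edgeR), in all 16 alternatives. Icosl had -0.45 (edgeR adjusted p = 0.379). Cd80 and Pdcd1lg2 had 0 counts in all libraries, and Cd86 had 1 and Cd40 5 counts in all.

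Cells that carry class II by profession were looked for with marker lists. The libraries were rich in epithelial genes, with 9544 to 10502 CPM over 7 markers in WT and 8040 to 10352 in Rank-knockout. Epcam and Vil1 were lower in Rank-knockout, by log2 fold changes of -0.45 (edgeR adjusted p = 0.0241) and -0.80 (adjusted p = 0.0025), Krt19 and Krt18 were higher by 0.65 (adjusted p = 0.0089) and 0.41 (adjusted p = 0.0458), and the other 3 did not pass, among them Cdh1 at -0.03 (adjusted p = 0.921). Vil1, Krt19 and Krt18 are named after their values had been seen. The part of these shifts in the class I differences was not tested. In bulk RNA, fewer cells of a type and less RNA per cell cannot be told apart.

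The 18 macrophage and dendritic cell markers summed to 18.4 to 45.2 CPM in WT and 14.5 to 34.1 CPM in Rank-knockout, and Adgre1, Flt3, Xcr1 and Clec9a had 0 counts in every library. By library the sum was 45.2, 30.4, 18.4 and 43.3 CPM in WT replicates 1 to 4, where the 7 class II genes summed to 231, 629, 904 and 1194 CPM. It was 26.5, 34.1, 17.1 and 14.5 CPM in Rank-knockout replicates 1 to 4, where the class II genes summed to 172, 1587, 142 and 1021 CPM. The marker sum was high in a library with low class II (WT replicate 1) and in libraries with high class II (WT replicate 4, Rank-knockout replicate 2). The sum includes Ptprc, which lymphocytes carry too, so it is not of macrophages and dendritic cells alone. Ptprc had 8.22, 10.9, 4.78 and 15.3 CPM in WT replicates 1 to 4 and 3.61, 10.1, 5.85 and 5.01 CPM in Rank-knockout. The part of macrophages and dendritic cells in the class II levels was not tested. The 7 B cell markers summed to 0.760 to 4.11 CPM in WT and to 0 to 1.91 CPM in Rank-knockout, with Cd79a and Blk at 0 in every library. A count of 0 allows up to 3 counts of a library's total, in counting error alone. The most abundant markers of these lists were Ptprc and C1qa, neither above 15.3 CPM, and Cd79b and Cd22, neither above 2.06 CPM.

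The 5 plasma cell markers summed to 29.4 to 93.8 CPM in WT and 6.29 to 42.8 CPM in Rank-knockout, mostly Igha and then Jchain, and Igha had a log2 fold change of -1.49 (edgeR adjusted p = 0.0664). The 12 markers of T cells and intraepithelial lymphocytes summed to 180 to 276 CPM in WT and 123 to 195 CPM in Rank-knockout, mostly Gzma and then Cd3e. Gzma had -0.45 (edgeR adjusted p = 0.0718), and 0 of the 6 tested genes of this list passed by edgeR, with 1 lower at an unadjusted p under 0.05, beside 20.1% of all genes tested. Stromal, muscle and endothelial markers summed to 10.7 to 18.5 CPM in WT and 5.85 to 17.6 CPM in Rank-knockout, led by Vim and Acta2, with Cdh5 at 0 in every library. The part of lymphocytes in the class I differences was not tested.

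**Figure D5:**
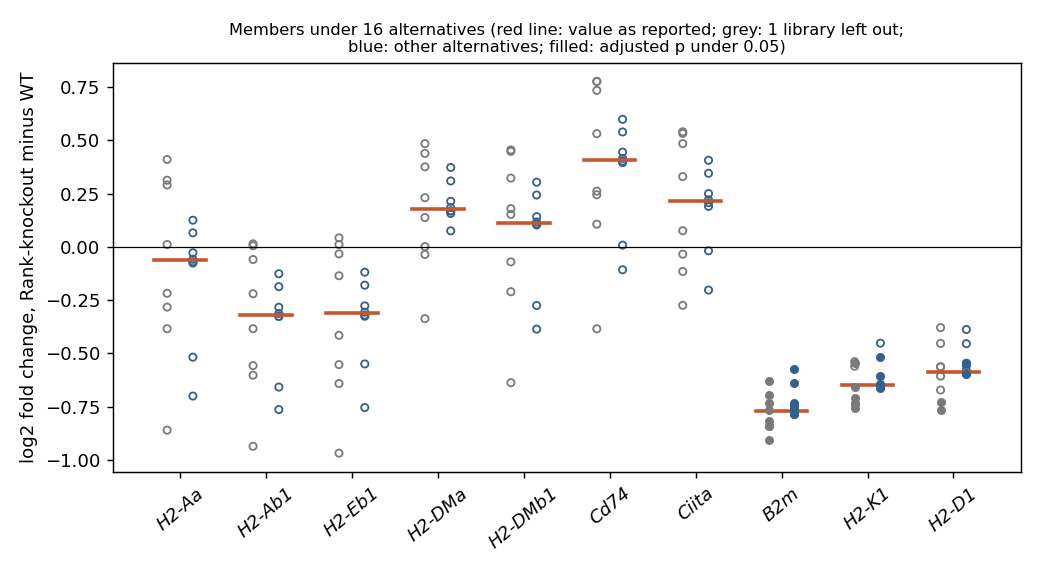
Log2 fold change of each of the 10 genes as reported (red line), with 1 library left out (grey) and under 8 other alternatives (blue). Filled points have an adjusted p under 0.05. Every point of B2m is filled and below 0, and H2-K1 and H2-D1 stay below 0 with calls that come and go. The points of the 7 class II genes are all open and reach both sides of 0. Those of H2-Ab1 and H2-Eb1 lie mostly below 0 and reach only 0.014 and 0.043 above it.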

How the data were processed

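Epithelial RNA was sequenced as 4 WT and 4 Rank-knockout QuantSeq 3′ libraries. Per the methods, the authors trimmed reads with BBDuk 38.06, removed abundant sequences with bowtie2 2.3.4.1, aligned to GRCm38 with STAR 2.6.0c and counted sense-strand reads with featureCounts (subread 1.6.2). The values deposited are raw counts per gene; molecular identifiers are not described for these libraries in the sources used here, so reads may include PCR copies. Symbols came from GENCODE M21 for 54409 of 54532 identifiers.

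Counts were filtered (filterByExpr), TMM-scaled and tested with edgeR 4.0.16 in R 4.3.3, with genotype as the only term. Correlations used log2 CPM with a prior count of 2. Nothing in the sources ties 1 library to 1 animal beyond its label, so p-values measure the spread between these libraries. Pathway and marker lists and members were chosen with earlier results of these data known. The text names the members, Tnfrsf11a, in each pathway list up to 6 called genes of smallest p and up to 3 of highest mean CPM, in each marker list the 2 of highest mean CPM and markers at 0, and the 5 genes most correlated with H2-Ab1 and with H2-K1. Further genes are named outside this rule, among them Rfxap, Rfxank, Nfya, Nfyb, Nfyc, Creb1, Ifng, H2-DMb2, Cd80, Cd86, Cd40 and Pdcd1lg2. Alternatives were RLE, no filter, library totals, DESeq2 1.42.0, a minimum mean CPM of 5, limma-voom (limma 3.58.1), sizes leaving out the 50 most abundant genes, a replicate block and each library left out. H2-D2 and H2-Ea were listed but matched no symbol, and 1 listed marker is not reported here.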

Additional observations from a re-analysis of the deposited data

Results flagged for a closer look

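In 4 cases a single value lay far from the other 3 libraries of their genotype, by more than Dixon's 95% limit for 4 values. They were found among 110 sets of 4 CPM values, where chance alone would give about 5.5, and none belonged to the 10 genes themselves. Nfya had 11.6 CPM in WT replicate 1, against 2.73 to 3.80 in the other WT libraries. Lgmn, an asparagine endopeptidase of lysosomes, had 2.53 CPM in WT replicate 2, against 11.6 to 13.3. H2-Q2 had 371 CPM in Rank-knockout replicate 4, against 286 to 299, which is still below every WT library. Lgals9 had 84.7 CPM in WT replicate 3, against 53.3 to 54.1, which is still below every Rank-knockout library.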

How the results depend on the processing

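Of 160 fold changes of the 10 genes under 16 alternatives, 129 kept their direction and their side of the threshold, 24 turned sign, 4 gained a call and 3 lost one. Library totals gave 2566 higher and 859 lower genes, members lower fell to 1 and pathway genes higher rose to 10. The median fold change of all genes was then 0.22, against 0.02 with TMM. Pathway genes higher were 5 without the 50 most abundant genes, 2 with no filter and 2 with the replicate block. Leaving out 1 library at a time gave 1020 (without WT replicate 4) to 1723 genes higher, 1 to 3 members lower and 1 to 2 pathway genes higher. Class II genes turned sign as follows, with none called. H2-Aa was 0.13 with library totals, 0.066 without the 50 most abundant genes and -0.86 to 0.41 with 1 library left out. With limma-voom H2-DMb1 was -0.39, Cd74 -0.11 and Ciita -0.20, and H2-Aa, H2-Ab1 and H2-Eb1 lay further below 0, at -0.70, -0.76 and -0.75. Left-out libraries gave -0.94 to 0.014 for H2-Ab1, -0.97 to 0.043 for H2-Eb1, -0.34 to 0.48 for H2-DMa, -0.64 to 0.46 for H2-DMb1, -0.39 to 0.78 for Cd74 and -0.27 to 0.54 for Ciita. With the replicate number as a block H2-DMb1 was -0.28 and Ciita -0.019. The same block gave -0.52 for H2-Aa, -0.66 for H2-Ab1, -0.55 for H2-Eb1, 0.17 for H2-DMa and 0.008 for Cd74, and 1708 genes were higher and 1602 lower. Same-numbered libraries correlated at 0.05, 0.15, -0.14 and 0.32, and 2 of the 4 WT libraries correlated best with their own number, so numbers were not taken as pairs. The cause of these shifts was not tested. Depth limits H2-DMa most, at 13 counts in WT replicate 1.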
